A study of Mus musculus with 8 samples.

Results

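The collagen chain genes were the 42 of 18193 measured genes whose annotated symbol reads Col, a number, the letter a and a number, as in Col1a1. They comprised 11 fibrillar chains, 6 chains of type IV, the network collagen of basement membranes, and 25 chains of other types. Probe sets annotated to 1 such symbol alone numbered 82, and 27 of the genes had more than 1. Each gene was read from its brightest probe set, the one with the highest mean log2 intensity over all arrays. A gene whose mean log2 intensity lay at or below the median over all genes (6.97, an intensity of 125) is called dim here. By that measure 24 collagen genes were dim and 18 were above the median, namely 6 fibrillar chains, 3 of type IV and 9 others.

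RNA came from C2C12 myotubes, the fused, multinucleated fibres formed by an established line of mouse myoblasts when serum is lowered, and was measured on 8 Affymetrix mouse expression arrays. Cells differentiated for 3 days in 2% serum, were infected with adenovirus and were collected after a further 3 days. There were 4 groups of 2 arrays. GFP myotubes received adenovirus for green fluorescent protein and no drug. GFP-PGC-1α myotubes received adenovirus for PGC-1α joined to GFP and no drug. GFP+DFO and GFP-PGC-1α+DFO myotubes received the same viruses and 100 µM deferoxamine (DFO), an iron chelator. All groups thus carried virus and GFP, and none was left uninfected. PGC-1α is a coactivator of genes of mitochondrial energy metabolism. Both arrays of a group are described as biological duplicates, and all came from 1 cell line.

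A collagen molecule is a triple helix of 3 chains, either identical or the products of different genes. Fibrillar collagens assemble into tensile fibres, type IV chains form the sheet of the basement membrane that surrounds muscle fibres, and type VI chains form beaded filaments that link that membrane to the surrounding matrix. Before the helix is secreted, prolyl and lysyl hydroxylases that need ferrous iron modify the chains. Related iron-dependent enzymes mark hypoxia-inducible factor for breakdown, so iron chelators are widely used to mimic low oxygen.

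The construct was seen on its arrays. Ppargc1a, the gene of PGC-1α, read 28.6 and 37.3 intensity units on the GFP arrays and 7211 and 7036 on the GFP-PGC-1α arrays. It read 26.6 and 88.1 in GFP+DFO and 7930.3 and 7710.5 in GFP-PGC-1α+DFO. Array medians lay between 59.5 and 62.8. The median SD of log2 intensity between the arrays of a group, over genes above the median level, was 0.0556 to 0.0751 in 3 groups and 0.112 in GFP-PGC-1α+DFO. The ratio of 5' to 3' probe signal for beta-actin, which drops as RNA degrades, was 0.897 to 0.921 without DFO, 0.859 and 0.868 in GFP+DFO, and 0.753 and 0.811 in GFP-PGC-1α+DFO. Summed over 8 myotube markers, all above the median level, intensity was 45954 to 49056 in GFP, 39602 to 39885 in GFP-PGC-1α, 19221 to 19696 in GFP+DFO and 13520.1 to 14551 in GFP-PGC-1α+DFO. The sum of 5 myoblast or reserve cell markers, 2 of them above the median level, was 2153 to 2199, 1971 to 2020, 646 to 648 and 289 to 396 in the same order. These markers divided, since 3 passed as lower with DFO while the dim Cd34 rose. In GFP and GFP-PGC-1α myotubes Cd34 changed by 1.43 and 1.06 (log2; limma adjusted p = 0.00285 and 0.00673). Of 5 fibroblast markers 4 were dim (Pdgfra, Thy1, Fap and Dpt), the sum ranged from 265 to 385 over all arrays, and 0 of 5 passed in any comparison. The 5 markers of bone and cartilage cells, of which Sp7, Ibsp, Alpl and Acan were dim, summed to 851 to 1028 without DFO and to 1469 to 1679 with it. Sox9, above the median level, rose with DFO by 1.09 and 1.05 (log2; limma adjusted p = 0.0011 and 0.00106), while the dim Ibsp of the same list fell by 0.94 and 0.999 (limma adjusted p = 0.0353 and 0.0282), neither of which passed with each array set to its bacterial poly-A spike-ins (limma adjusted p = 0.0704 and 0.116). All 3 adipocyte markers and all 3 endothelial markers were dim. Their sums reached at most 149.6 and 253. The 3 macrophage markers, of which Ptprc and Cd68 were dim, summed to 452 to 544 without DFO and to 553 to 622 with it. The part of these differences in the collagen results was not tested. In bulk RNA, fewer cells of a type and less RNA per cell cannot be told apart.

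The first question was what iron chelation did to collagen transcripts, in GFP myotubes and in GFP-PGC-1α myotubes. With DFO the chains of type V collagen and the α1 chain of type I rose in both, while the α1 and α2 chains of type VI and the α1 chain of type VIII fell in both. No type IV chain passed the test in either. In GFP myotubes limma passed 14 of the 42 collagen genes, against 24.2% of all genes tested. Of these 10 were higher, against 11.8% of all genes, and 4 lower, against 12.5%. In GFP-PGC-1α myotubes it also passed 14, against 25.6% of all genes, with 9 higher (11.4% of all genes) and 5 lower (14.2%). Among genes above the median level the counts were 9 of 18 in GFP myotubes (39.8% of all such genes) and 10 of 18 in GFP-PGC-1α myotubes (41.1%). The rises were thus more frequent than over all genes and the falls slightly less, and neither difference was tested. The median log2 change over the 42 genes was 0.29 in GFP myotubes and 0.12 in GFP-PGC-1α myotubes, beside -0.02 and 0.01 over all genes.

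By class, the 11 fibrillar chains had 4 rises and 1 fall in GFP myotubes and 4 rises and 2 falls in GFP-PGC-1α myotubes. The 6 type IV chains had none in either, with 2 and 0 at an unadjusted limma p under 0.05. Of all 18193 genes 6502 and 6780 were under that mark. The 25 other chains had 6 rises and 3 falls, then 5 rises and 3 falls. Class medians in GFP myotubes were 0.25 for fibrillar chains, 0.09 for type IV and 0.32 for the others. In GFP-PGC-1α myotubes they were 0.21, -0.01 and 0.27. Counts of 14 rest on few arrays. In GFP myotubes limma passed 7 collagen genes without GFP+DFO replicate 1, 8 without GFP+DFO replicate 2 and 9 without GFP replicate 2, and in GFP-PGC-1α myotubes it passed 8 without GFP-PGC-1α replicate 1. Scaling the arrays to their bacterial poly-A spike-ins in place of the deposited scale added the same amount to every gene of a comparison. That amount was 0.36 (log2) for DFO in GFP-PGC-1α myotubes and 0.06 for DFO in GFP myotubes, and the splits became 12 higher and 3 lower, and 7 higher and 3 lower. Without the Trpn spike-ins, a choice made after seeing the data, they were 12 and 2, and 6 and 4. The shares of all genes given above belong to the deposited scale and cannot be set beside these splits.

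**Figure D1:**
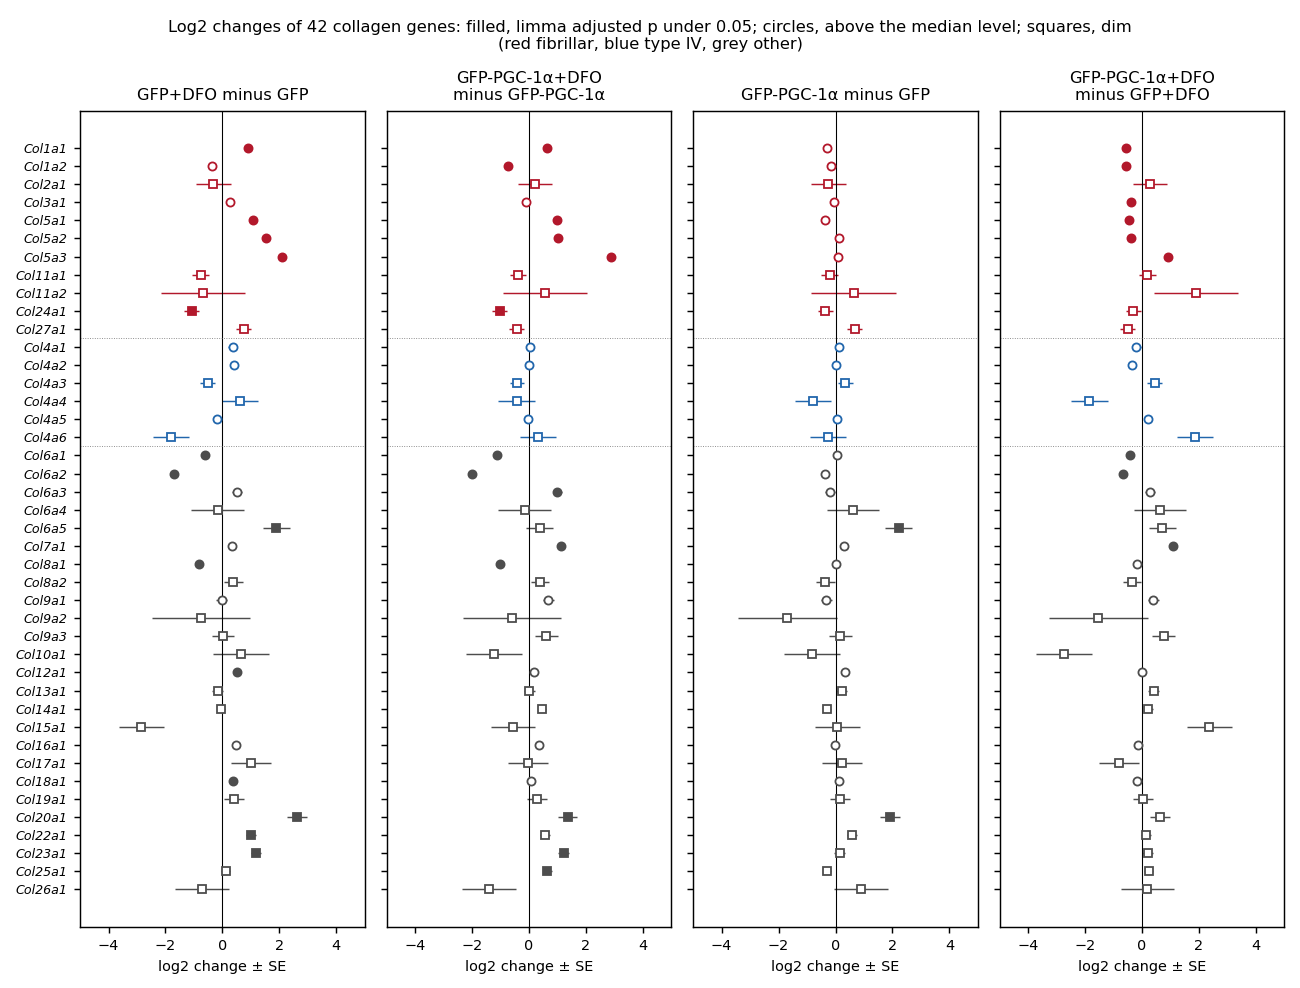
Log2 change ± SE (limma) of the 42 collagen genes in each of the 4 single-factor comparisons, 1 panel per comparison and 1 line per gene. Filled symbols passed an adjusted p of 0.05; circles are genes above the median level and squares dim genes; red marks fibrillar chains, blue type IV and grey the others. Col5a3 lies farthest right among circles in both DFO panels (2.09 and 2.89), Col6a2 farthest left (-1.69 and -1.98), and no blue symbol is filled.

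Type V collagen regulates the diameter of the fibrils it forms with type I, and its molecules combine the chains of Col5a1, Col5a2 and Col5a3. Promoter sequences, from 250 bases before to 50 after the start site, were taken from RefSeq (build GRCm38.p6), which gave a window for 33 of the 42 genes. The windows were searched on both strands for ACGTG and GCGTG, core letters of the element that hypoxia-inducible factor binds, and for AAGGTCA, a site of the receptor ERRα with which PGC-1α works. Matches on opposite strands may overlap and are counted separately. ACGTG was present in 19.6% of all 32851 windows of that length, GCGTG in 32.4% and AAGGTCA in 4.72%. Of the 36 windows of the 33 collagen genes 4, 9 and 5 held them, in as many genes. ACGTG or GCGTG was in 12 of the 36, in as many genes, against 43.8% of all windows. Shown here, because their genes changed with DFO in opposite directions, are the windows of Col5a1 (chr2:27886175-27886474, plus strand), Col5a3 (chr9:20815018-20815317, minus strand) and Col1a2 (chr6:4505368-4505667, plus strand), each written 5′ to 3′ along the gene. Capitals mark ACGTG or GCGTG or their reverse complements.
Col5a1: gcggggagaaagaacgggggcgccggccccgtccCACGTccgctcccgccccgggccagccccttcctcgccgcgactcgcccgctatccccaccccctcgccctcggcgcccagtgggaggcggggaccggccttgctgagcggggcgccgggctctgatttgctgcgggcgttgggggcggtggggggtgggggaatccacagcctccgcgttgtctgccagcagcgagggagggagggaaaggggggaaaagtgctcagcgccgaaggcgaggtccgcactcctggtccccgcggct
Col5a3: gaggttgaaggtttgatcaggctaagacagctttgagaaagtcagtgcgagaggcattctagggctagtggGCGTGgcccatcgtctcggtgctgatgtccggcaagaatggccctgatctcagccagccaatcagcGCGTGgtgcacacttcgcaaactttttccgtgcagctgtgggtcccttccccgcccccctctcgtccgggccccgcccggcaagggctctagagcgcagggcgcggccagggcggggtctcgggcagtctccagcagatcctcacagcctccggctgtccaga
Col1a2: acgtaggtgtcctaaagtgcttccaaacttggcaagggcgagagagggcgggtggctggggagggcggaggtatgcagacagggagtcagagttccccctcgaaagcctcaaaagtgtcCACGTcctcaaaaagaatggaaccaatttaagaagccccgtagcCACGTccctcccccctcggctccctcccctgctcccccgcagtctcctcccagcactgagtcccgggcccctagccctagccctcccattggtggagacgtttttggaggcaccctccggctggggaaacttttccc
The window of Col5a1, which rose, held 1 match, that of Col5a3, which rose, 2, and that of Col1a2, which fell in GFP-PGC-1α myotubes, 2. A match is a description of these letters and not evidence of binding. Without a window were Col1a1, Col2a1, Col4a3, Col5a2, Col9a3, Col12a1, Col14a1, Col22a1 and Col26a1.

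Col5a3, the third and least widespread chain of type V, read 134 and 163 on the GFP arrays, 147 and 169.8 on the GFP-PGC-1α arrays, 625 and 635 in GFP+DFO, and 1256 and 1098 in GFP-PGC-1α+DFO. Every array with DFO lay above every array without it, and the GFP-PGC-1α+DFO arrays were the highest. The log2 change with DFO was 2.09 ± 0.14 in GFP myotubes (SE; limma adjusted p = 0.000743) and 2.89 ± 0.14 in GFP-PGC-1α myotubes (limma adjusted p = 0.000264), or 4.26-fold and 7.43-fold. The gene has a second, dim probe set whose log2 changes were 0.60 and 0.23 (limma adjusted p over all probe sets 0.733 and 0.901). With the mean of both probe sets in place of the brighter one, the changes were 1.34 and 1.56 and no longer passed (limma adjusted p = 0.081 and 0.05001).

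Col5a2, the α2 chain of type V, read 1884 and 2113 in GFP, 2199.6 and 2181 in GFP-PGC-1α, 5874 and 5798 in GFP+DFO, and 4507 and 4349 in GFP-PGC-1α+DFO. The DFO arrays were again all above the others, here with GFP+DFO the highest. The rise was 1.55 ± 0.09 in GFP myotubes (log2; limma adjusted p = 0.0005) and 1.02 ± 0.09 in GFP-PGC-1α myotubes (limma adjusted p = 0.00143). Its second probe set had 0.91 ± 0.12 (limma adjusted p over all probe sets 0.00893) and -0.09 ± 0.12 (0.656), so in GFP-PGC-1α myotubes the probe sets differed. Col5a1, the α1 chain, read 1658 and 1454 in GFP, 1226 and 1197 in GFP-PGC-1α, 3207 and 3390 in GFP+DFO, and 2549 and 2201 in GFP-PGC-1α+DFO. No array with DFO overlapped one without. Its log2 changes were 1.09 ± 0.12 (limma adjusted p = 0.00285) and 0.97 ± 0.12 (limma adjusted p = 0.0038), and both of its other probe sets rose in both comparisons. The calls of the 3 type V chains with DFO held whichever 1 array was left out, with a highest limma adjusted p of 0.0297.

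The α chains of type I, the main collagen of tendon, bone and the connective tissue of muscle, went opposite ways with DFO. Col1a1 read 381 and 336 in GFP, 278 and 302 in GFP-PGC-1α, 676 and 648 in GFP+DFO, and 486 and 414 in GFP-PGC-1α+DFO. All 4 DFO arrays were above the rest. It rose by 0.89 ± 0.12 (log2; limma adjusted p = 0.00634) and 0.63 ± 0.12 (limma adjusted p = 0.0184), and its second probe set rose by 1.30 and 1.19. Col1a2 read 2575 and 2318 in GFP, 2084 and 2253 in GFP-PGC-1α, 1875 and 1939 in GFP+DFO, and 1339 and 1245 in GFP-PGC-1α+DFO. The DFO arrays were the lowest of each pair of groups, without overlap. The fall was 0.75 on the log2 scale in GFP-PGC-1α myotubes (-0.75 ± 0.10, limma adjusted p = 0.00529), while the change of -0.36 ± 0.10 in GFP myotubes missed the threshold (limma adjusted p = 0.0565). On the poly-A scale the change in GFP-PGC-1α myotubes was -0.39 (limma adjusted p = 0.132). The Col1a1 call in GFP myotubes ended without GFP+DFO replicate 1 (limma adjusted p = 0.0507). That in GFP-PGC-1α myotubes ended without GFP-PGC-1α replicate 1 (0.0978) or 2 (0.0578) or GFP-PGC-1α+DFO replicate 1 (0.0572).

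Col3a1, the homotrimer of elastic tissues and wound repair, read 8628 and 8681 in GFP, 8532 and 8322 in GFP-PGC-1α, 10261 and 10389 in GFP+DFO, and 8005 and 7592.5 in GFP-PGC-1α+DFO. GFP+DFO was the highest group and GFP-PGC-1α+DFO the lowest. The change with DFO was 0.25 ± 0.08 (log2) in GFP myotubes, with a 95% interval of 0.06 to 0.45 and a limma adjusted p of 0.0724. In GFP-PGC-1α myotubes it was -0.11 ± 0.08, with an interval of -0.31 to 0.08 (limma adjusted p = 0.363). There the second Col3a1 probe set had -1.21, and the mean of both had -0.66 and passed (limma adjusted p = 0.0129). In GFP myotubes that mean was 0.15 and did not pass (limma adjusted p = 0.431).

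**Figure D2:**
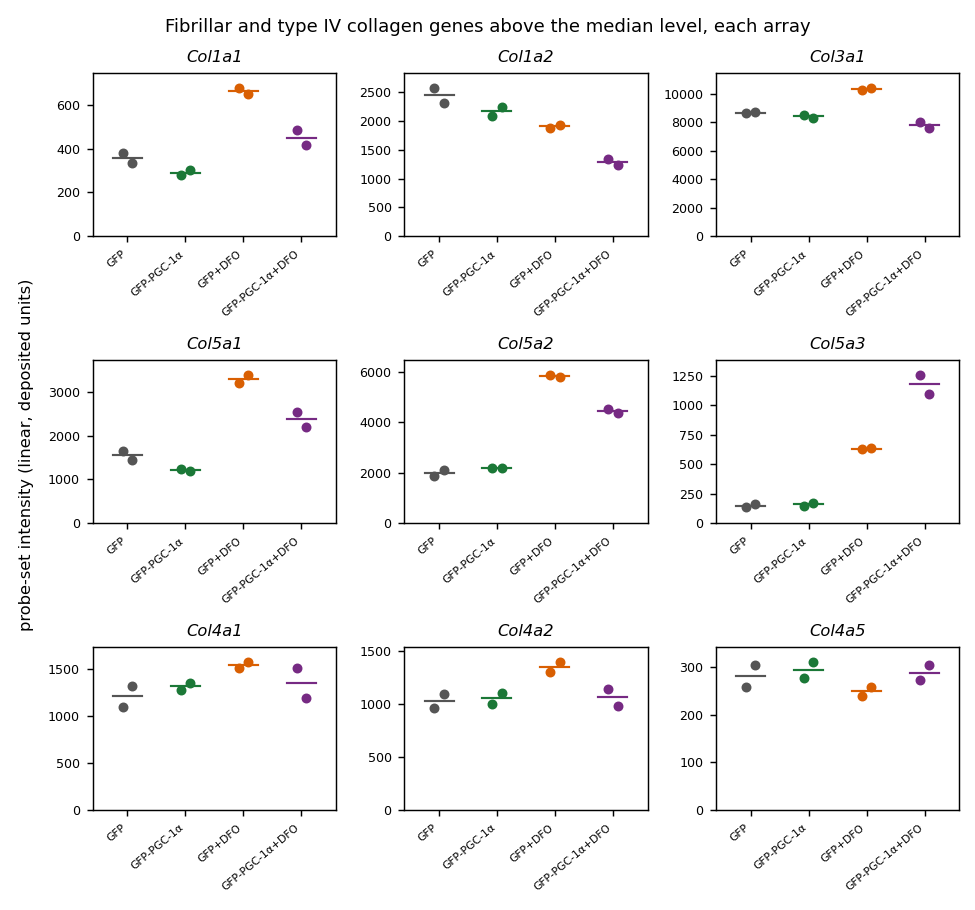
Probe-set intensity, linear scale in deposited units and starting at 0, of the 6 fibrillar and 3 type IV genes above the median level, with a point per array and a bar at the mean of each group of 2. Col5a3 is at 134 to 169.8 without DFO and 625 to 1256 with it, whereas the 8 arrays of Col4a5 lie between 239.7 and 312.

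No type IV chain passed with DFO on the deposited scale. In basement membranes Col4a1 and Col4a2 form the widely expressed network, and Col4a3, Col4a4, Col4a5 and Col4a6 form more restricted ones. Col4a1 and Col4a2 lie head to head on chromosome 8, with start sites 21 bases apart on opposite strands, and their RefSeq windows share 78 bases. They are shown because they are a pair of chains whose genes share a promoter region: Col4a1 at chr8:11312777-11313076, minus strand, and Col4a2 at chr8:11312555-11312854, plus strand, with GCGTG in capitals.
Col4a1: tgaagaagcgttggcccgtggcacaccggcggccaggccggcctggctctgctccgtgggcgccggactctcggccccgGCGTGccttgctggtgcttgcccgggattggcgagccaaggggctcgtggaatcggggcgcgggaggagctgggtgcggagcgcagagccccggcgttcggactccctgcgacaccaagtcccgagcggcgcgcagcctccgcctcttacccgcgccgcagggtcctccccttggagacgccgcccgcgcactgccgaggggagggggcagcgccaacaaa
Col4a2: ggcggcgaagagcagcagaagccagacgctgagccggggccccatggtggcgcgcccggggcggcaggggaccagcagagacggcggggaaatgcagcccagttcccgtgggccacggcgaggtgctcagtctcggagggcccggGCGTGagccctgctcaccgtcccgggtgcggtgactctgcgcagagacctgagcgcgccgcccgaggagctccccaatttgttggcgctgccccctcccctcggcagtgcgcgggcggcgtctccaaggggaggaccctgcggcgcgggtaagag
Each window held 1 GCGTG and no ACGTG or AAGGTCA. Start sites of Col4a5 and Col4a6, the pair on the X chromosome, lie 1343 bases apart.

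Col4a1 read 1099 and 1314 in GFP, 1274 and 1349.7 in GFP-PGC-1α, 1513 and 1574 in GFP+DFO, and 1511 and 1192 in GFP-PGC-1α+DFO. GFP+DFO arrays were above GFP arrays, while the GFP-PGC-1α+DFO arrays overlapped those of GFP-PGC-1α. Its log2 change with DFO was 0.36 ± 0.15 in GFP myotubes (95% interval -0.03 to 0.75, limma adjusted p = 0.165) and 0.03 ± 0.15 in GFP-PGC-1α myotubes (-0.36 to 0.42, limma adjusted p = 0.906). Col4a2 read 963 and 1090.1 in GFP, 1000.1 and 1097 in GFP-PGC-1α, 1298 and 1394 in GFP+DFO, and 1138 and 981 in GFP-PGC-1α+DFO. The order of the groups was as for Col4a1. Its changes were 0.39 ± 0.12 (0.08 to 0.71, limma adjusted p = 0.0797) and 0.01 ± 0.12 (-0.30 to 0.33, limma adjusted p = 0.96). Col4a5 read 258 and 306, 277 and 312, 239.7 and 259, and 273 and 305 in GFP, GFP-PGC-1α, GFP+DFO and GFP-PGC-1α+DFO. Its groups overlapped under DFO in both comparisons. The changes were -0.17 ± 0.13 (-0.50 to 0.16) and -0.03 ± 0.13 (-0.36 to 0.31), with limma adjusted p = 0.424 and 0.91. Its second probe set read a mean of 187 in GFP-PGC-1α and 29.9 in GFP-PGC-1α+DFO, so the missing call of Col4a5 held for its brightest probe set only. Col4a3, Col4a4 and Col4a6 were dim. The missing calls with DFO in GFP myotubes depended on the fit, since Col4a2 passed after quantile normalization and Col4a1 and Col4a2 passed with trended and robust moderation.

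Type VI, made of 3 different chains and abundant around muscle fibres, divided. Col6a2 read 768 and 686 in GFP, 581 and 543 in GFP-PGC-1α, 227 and 222 in GFP+DFO, and 137 and 147 in GFP-PGC-1α+DFO. All DFO arrays lay below all others, with GFP-PGC-1α+DFO the lowest. The log2 change with DFO was -1.69 ± 0.10 in GFP myotubes (limma adjusted p = 0.000504) and -1.98 ± 0.10 in GFP-PGC-1α myotubes (limma adjusted p = 0.00028), and its other probe set fell further, by 2.22 and 2.79. The first of its 2 promoter windows (chr10:76623355-76623654, minus strand) is shown to set beside those of the chains that rose, with its match to GCGTG in capitals.
Col6a2: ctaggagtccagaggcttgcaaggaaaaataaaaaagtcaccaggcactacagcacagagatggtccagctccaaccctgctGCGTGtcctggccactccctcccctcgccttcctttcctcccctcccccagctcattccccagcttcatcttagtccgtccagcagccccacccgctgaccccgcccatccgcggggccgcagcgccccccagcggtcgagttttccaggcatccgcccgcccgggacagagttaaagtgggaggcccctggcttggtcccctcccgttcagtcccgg
The second Col6a2 window held none of the 3 motifs. Col6a1 read 1044 and 1041 in GFP, 1055 and 1124 in GFP-PGC-1α, 672 and 683 in GFP+DFO, and 544 and 462 in GFP-PGC-1α+DFO. It too was lower on every DFO array. Its changes were -0.62 ± 0.11 (limma adjusted p = 0.0124) and -1.12 ± 0.11 (limma adjusted p = 0.00174). The first of these calls ended without GFP replicate 1 (limma adjusted p = 0.0615) or 2 (0.0546) or GFP+DFO replicate 1 (0.0802) or 2 (0.0744), and on the poly-A scale (0.0695).

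Col6a3, which encodes the largest chain of type VI, went the other way. It read 749 and 663 in GFP, 591 and 639 in GFP-PGC-1α, 900.5 and 1129 in GFP+DFO, and 1363 and 1109 in GFP-PGC-1α+DFO. Every DFO array was above every array without DFO. It rose by 1.00 ± 0.17 (log2) in GFP-PGC-1α myotubes (limma adjusted p = 0.0109), a call that ended without GFP-PGC-1α replicate 1 (0.0644). In GFP myotubes the change of 0.52 ± 0.17 (95% interval 0.10 to 0.94) missed the threshold (limma adjusted p = 0.0841).

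Col8a1, a short-chain network collagen of vessel walls and the eye, read 466 and 509 in GFP, 500.1 and 485 in GFP-PGC-1α, 285 and 264 in GFP+DFO, and 253 and 235 in GFP-PGC-1α+DFO. The groups with and without DFO did not overlap. It fell by 0.83 ± 0.10 (log2; limma adjusted p = 0.00356) and by 1.01 ± 0.10 (limma adjusted p = 0.00173). On the poly-A scale without Trpn the second value was -0.57 and did not pass (limma adjusted p = 0.0525). Its other probe sets had log2 changes of -0.63 and -0.69, and of -0.32 and -0.37, and none passed in the fit of all probe sets (limma adjusted p from 0.0604 to 0.369).

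Col7a1, the anchoring fibril collagen of skin, was high in 1 group only. It read 209 and 192 in GFP, 221 and 273 in GFP-PGC-1α, 237 and 265 in GFP+DFO, and 542 and 524 in GFP-PGC-1α+DFO. With DFO it rose by 1.12 ± 0.14 (log2) in GFP-PGC-1α myotubes (limma adjusted p = 0.00392), whereas the change in GFP myotubes was 0.32 ± 0.14 (95% interval -0.02 to 0.67, limma adjusted p = 0.161). The Col7a1 window (chr9:108953336-108953635, plus strand) is shown for its match to AAGGTCA, in capitals on the opposite strand.
Col7a1: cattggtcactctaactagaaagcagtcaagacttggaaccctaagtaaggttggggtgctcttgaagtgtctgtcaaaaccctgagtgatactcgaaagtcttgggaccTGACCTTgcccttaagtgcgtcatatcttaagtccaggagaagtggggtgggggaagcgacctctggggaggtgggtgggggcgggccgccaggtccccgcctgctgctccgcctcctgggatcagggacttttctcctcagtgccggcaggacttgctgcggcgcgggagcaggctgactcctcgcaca
It held neither ACGTG nor GCGTG. Of the other collagen genes with AAGGTCA, namely Col9a1, Col11a1, Col23a1 and Col24a1, none passed with the construct, with or without DFO.

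Smaller rises in GFP myotubes were those of Col12a1, which decorates fibril surfaces, and Col18a1, a basement membrane chain whose end fragment is endostatin. Col12a1 read 495 and 407 in GFP, 584 and 541 in GFP-PGC-1α, 618 and 654 in GFP+DFO, and 631 and 635 in GFP-PGC-1α+DFO. The GFP arrays were the lowest. Its change with DFO in GFP myotubes was 0.50 ± 0.12 (log2; limma adjusted p = 0.0364). Its call ended without GFP replicate 2, either GFP-PGC-1α array, either GFP-PGC-1α+DFO array or either GFP+DFO array, with limma adjusted p from 0.057 to 0.172. A second Col12a1 probe set rose by 2.28 ± 0.18 in GFP myotubes and by 1.42 ± 0.18 in GFP-PGC-1α myotubes (limma adjusted p over all probe sets 0.00236 and 0.00749). The 2 remaining probe sets had 0.34 and 0.74 in GFP myotubes and -1.18 and -0.36 in GFP-PGC-1α myotubes, and none of these passed. With the mean of the 4 probe sets the change in GFP-PGC-1α myotubes was 0.013 (limma adjusted p = 0.979). The Col12a1 call in GFP myotubes ended on the poly-A scale (limma adjusted p = 0.0761).

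Col18a1 read 171 and 175 in GFP, 187 and 192 in GFP-PGC-1α, 219.99 and 233 in GFP+DFO, and 196 and 201 in GFP-PGC-1α+DFO. GFP+DFO was the highest group and GFP the lowest. The change with DFO in GFP myotubes was 0.39 ± 0.08 (limma adjusted p = 0.0217). It was 0.17 on the other probe set, which did not pass, and the call ended without either GFP, GFP-PGC-1α or GFP+DFO array, with limma adjusted p from 0.0515 to 0.137. It ended on the poly-A scale too (limma adjusted p = 0.141). Col16a1, a minor fibril-associated chain, read 266 and 228, 248 and 239.9, 359 and 324, and 284 and 338 in GFP, GFP-PGC-1α, GFP+DFO and GFP-PGC-1α+DFO, with all DFO arrays above the others. Its changes of 0.47 ± 0.14 and 0.34 ± 0.14 did not pass (limma adjusted p = 0.0614 and 0.132). Col9a1, a chain of cartilage fibrils, read 136 and 115, 88.5 and 114, 127 and 118, and 143 and 181 in the same order. GFP-PGC-1α+DFO arrays were the highest, and the change with DFO of 0.68 ± 0.19 in GFP-PGC-1α myotubes just missed the threshold (limma adjusted p = 0.051), with -0.03 ± 0.19 in GFP myotubes.

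**Figure D3:**
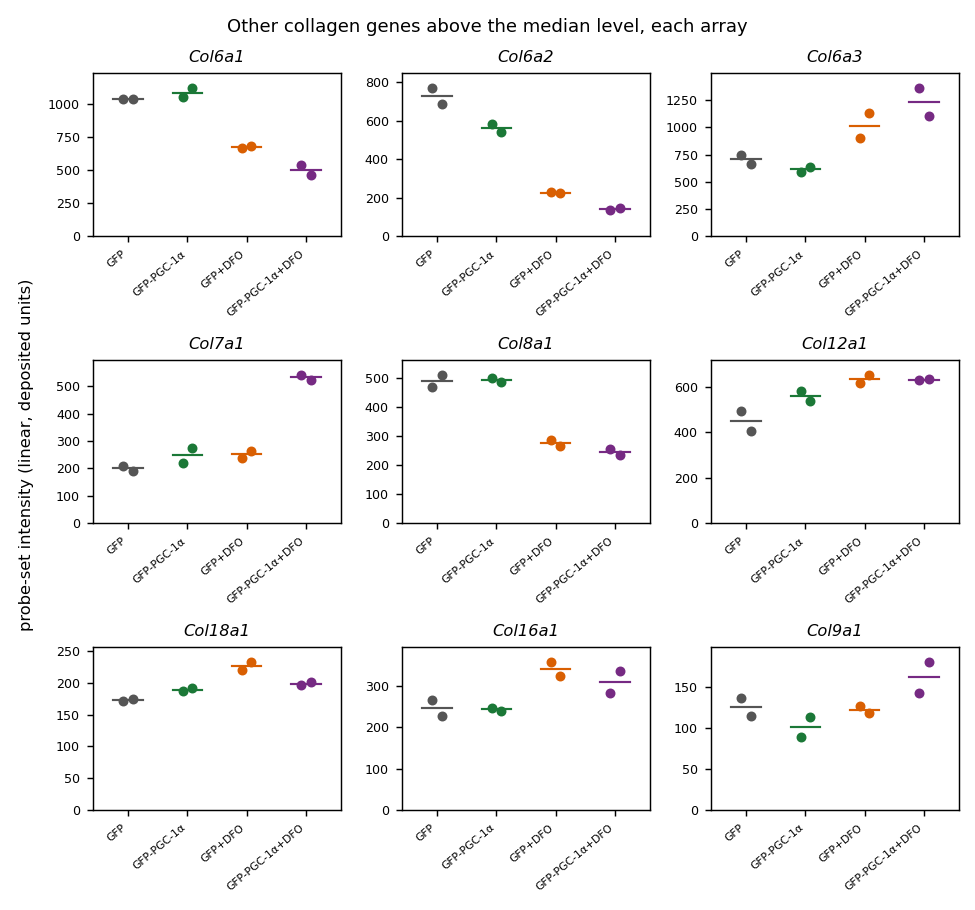
Probe-set intensity, linear scale in deposited units and starting at 0, of the 9 collagen genes above the median level that are neither fibrillar nor type IV, with a point per array and a bar at the mean of each group of 2. Col6a1, Col6a2 and Col8a1 are lower on all 4 DFO arrays than on the others, Col6a3 is higher on all 4, and Col7a1 is at 524 and 542 on the GFP-PGC-1α+DFO arrays and at most 273 elsewhere.

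Of the 24 dim genes 5 passed with DFO in GFP myotubes (8.63% of all dim genes did) and 4 in GFP-PGC-1α myotubes (10.2%). Of the 6 genes behind these calls only Col6a5 and Col20a1 fell below an array's 25th percentile, on 5 and 2 arrays, and most calls did not hold when arrays were left out. Col20a1, a fibril-associated chain, read 6.01 and 6.61 in GFP, 23.4 and 23.8 in GFP-PGC-1α, 27.8 and 54.4 in GFP+DFO, and 71.7 and 50.8 in GFP-PGC-1α+DFO. The GFP arrays were the lowest, and these were the 2 below their array's 25th percentile (21.8 and 20.7). Col20a1 rose with DFO by 2.63 ± 0.34 (log2; limma adjusted p = 0.00526) and 1.36 ± 0.34 (limma adjusted p = 0.0414). The size of the first rise thus rests on very low reference values. Col23a1, a transmembrane collagen, read 44.2 and 65.3, 58.3 and 60.6, 117 and 126, and 142 and 136 in GFP, GFP-PGC-1α, GFP+DFO and GFP-PGC-1α+DFO. It rose by 1.18 ± 0.19 (limma adjusted p = 0.0106) and 1.23 ± 0.19 (limma adjusted p = 0.00893), with every DFO array above the rest. Col24a1, a fibrillar chain of bone and eye development, read 64.1 and 64.9, 65.0 and 39.0, 31.2 and 30.1, and 21.9 and 28.1. It fell by 1.07 ± 0.26 (limma adjusted p = 0.0382) and 1.02 ± 0.26 (limma adjusted p = 0.0431). The others were Col22a1, found at muscle-tendon junctions (1.00 ± 0.19 in GFP myotubes, limma adjusted p = 0.0163), Col6a5 (1.89 ± 0.47 in GFP myotubes, limma adjusted p = 0.0401) and Col25a1, a transmembrane collagen of motor innervation (0.65 ± 0.15 in GFP-PGC-1α myotubes, limma adjusted p = 0.0294). Of these 9 calls only that of Col20a1 in GFP myotubes held whichever array was left out. The highest limma adjusted p of the other 8 ranged from 0.0538 to 0.156. On the poly-A scale the calls of Col6a5 in GFP myotubes (limma adjusted p = 0.0558) and of Col24a1 in both (0.0561 and 0.124) ended. Without Trpn those of Col6a5 (0.0728) and Col22a1 (0.0667) in GFP myotubes and of Col24a1 in GFP-PGC-1α myotubes (0.135) did.

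The remaining 18 dim genes passed in no single-factor comparison. They were Col2a1, Col11a1, Col11a2 and Col27a1 among fibrillar chains, Col4a3, Col4a4 and Col4a6 of type IV, and Col6a4, Col8a2, Col9a2, Col9a3, Col10a1, Col13a1, Col14a1, Col15a1, Col17a1, Col19a1 and Col26a1. Several define other tissues, as Col2a1 and Col10a1 do cartilage. Col2a1 did not exceed 21.9 on any array and Col10a1 did not exceed 46.6. Values of exactly 1 were listed on 2 arrays each for Col9a2 and Col11a2 and on 1 for Col15a1. At such levels a missing call says little about the gene.

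The second question was what the PGC-1α construct did without DFO. Among the 18 collagen genes above the median level, 0 passed limma (16.1% of all genes above the median did). At an unadjusted limma p under 0.05 were 3 of the 18, beside 3661 of all 9096 genes above the median level. Over all 42 genes 2 passed, both dim and both higher, against 9.73% of all genes in either direction (4.96% higher and 4.77% lower). The median change of the 42 was 0.06, beside -0.08 over all genes. Class medians were -0.17 for fibrillar chains, 0.05 for type IV and 0.13 for the others.

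The 2 called were Col6a5, a type VI chain, which read 3.55 and 7.44 in GFP and 16.5 and 34.6 in GFP-PGC-1α, and Col20a1, whose values stand above. In neither did the groups of 2 arrays overlap, which adds no support for genes picked by adjusted p. The changes of these genes were 2.22 ± 0.47 (log2; limma adjusted p = 0.0476) and 1.90 ± 0.34 (limma adjusted p = 0.032). For both genes the GFP arrays read below their 25th percentile, so these sizes rest on very low reference values. Without 1 array the Col6a5 call ended in each of 8 cases (limma adjusted p from 0.0588 to 0.159). The Col20a1 call ended without any 1 of the 4 arrays compared (0.106 to 0.142). The Col6a5 call ended on the poly-A scale too (limma adjusted p = 0.0615), and without Trpn both did (0.0818 and 0.0588). Among the brighter genes Col5a1 had -0.36 ± 0.12 (95% interval -0.65 to -0.06, limma adjusted p = 0.124), Col6a2 -0.37 ± 0.10 (-0.62 to -0.12, limma adjusted p = 0.0817) and Col12a1 0.32 ± 0.12 (0.02 to 0.63, limma adjusted p = 0.163). The intervals of Col4a1, Col4a2 and Col4a5 all included 0, with changes from 0.03 to 0.13. With trended, robust moderation of the spread limma passed 5 collagen genes, namely Col5a1, Col6a2, Col12a1 and the 2 dim ones.

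The third question was what the construct did in the presence of DFO. Here limma passed 9 of 42 genes, against 18.9% of all genes. Of these 2 were higher (6.93% of all genes) and 7 lower (12%), and all 9 were above the median level, where 32.2% of all genes passed. Col5a3 and Col7a1 rose and the major fibrillar chains Col1a1, Col1a2, Col3a1, Col5a1 and Col5a2 fell, as did Col6a1 and Col6a2. These 7 falls depended on the scale of the arrays. On the poly-A scale every gene of this comparison moved up by 0.50 (0.62 without Trpn). The median change of all genes went from -0.05 to 0.45 (0.57). The split of the collagen genes became 5 higher and 0 lower (8 and 0), under a shift that all genes share. Col3a1, Col5a1, Col5a2 and Col6a1 were then above 0, with changes from 0.03 to 0.10, as were Col1a1 and Col1a2 without Trpn, each at 0.05. Col6a2 stayed below 0, at -0.16 and -0.05, and did not pass. The rises of Col5a3 and Col7a1 passed on both scales. With the mean of its probe sets Col5a3 had 0.22 and did not pass (limma adjusted p = 0.791).

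Array values are those given above for DFO. Col7a1 rose by 1.09 ± 0.14 (log2; limma adjusted p = 0.00679) and Col5a3 by 0.90 ± 0.14 (limma adjusted p = 0.0137), or 2.13-fold and 1.86-fold. In both, the GFP-PGC-1α+DFO arrays were above the GFP+DFO arrays. On the deposited scale the falls were Col6a2 at -0.67 ± 0.10 (limma adjusted p = 0.0114), Col1a2 at -0.56 ± 0.10 (0.0191), Col1a1 at -0.56 ± 0.12 (0.0345) and Col5a1 at -0.48 ± 0.12 (0.0462). Col6a1 had -0.43 ± 0.11 (limma adjusted p = 0.0464), Col3a1 -0.41 ± 0.08 (0.0234) and Col5a2 -0.40 ± 0.09 (0.0379). In none of the 7 did the groups of 2 arrays overlap. This adds no support, since the genes were picked by adjusted p, and the share over all genes was not counted. In type IV, Col4a1 had -0.20 ± 0.15 (95% interval -0.59 to 0.19), Col4a2 -0.35 ± 0.12 (-0.66 to -0.03) and Col4a5 0.21 ± 0.13 (-0.12 to 0.54), with limma adjusted p = 0.444, 0.121 and 0.349. In all, 3 of the 6 type IV chains were at an unadjusted limma p under 0.05, beside 5864 of all 18193 genes. The dim Col4a6 passed on the poly-A scale.

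No call of this comparison held whichever array was left out. Without GFP+DFO replicate 1 limma passed 0 of the 9 (limma adjusted p 0.0595 for Col7a1 and 0.0919 for Col5a3) and without GFP+DFO replicate 2 only Col7a1. It passed 4 collagen genes without either GFP-PGC-1α array and 3 without GFP-PGC-1α+DFO replicate 2. A fit of these 2 groups alone passed Col7a1 only. Beta-actin ratios were lowest, and the spread between arrays widest, in GFP-PGC-1α+DFO, and their part in these falls was not tested. Second probe sets of Col1a2 and Col3a1 had -1.25 and -1.46 in this comparison (limma adjusted p over all probe sets 0.0116 and 0.00823). The third of Col1a2, which read low, had 0.98 ± 0.78 (0.524), and the mean of all 3 was -0.28 (limma adjusted p = 0.532). That of Col1a1 had -0.05 (0.924), and those of Col5a1 had -0.26 and -0.42 (0.605 and 0.176).

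Whether the effects of DFO differed between GFP-PGC-1α and GFP myotubes was tested as the interaction of construct and drug. limma passed 0 of 42 collagen genes, against 0.555% of all genes. At an unadjusted limma p under 0.05 were 11 of the 42, beside 3165 of all 18193 genes. Among genes above the median level the largest values were those of Col5a3 (0.80 ± 0.20, 95% interval 0.29 to 1.31, limma adjusted p = 0.153), Col7a1 (0.79 ± 0.19, 0.31 to 1.28, limma adjusted p = 0.147) and Col9a1 (0.71 ± 0.26, 0.05 to 1.38, limma adjusted p = 0.263). Of the 18 genes 5 had a value above 0. The lowest were Col5a2 at -0.53 ± 0.13 (limma adjusted p = 0.144), Col6a1 at -0.50 ± 0.15 (0.197), Col1a2 at -0.39 ± 0.14 (0.255), Col4a2 at -0.38 ± 0.18 (0.348) and Col3a1 at -0.37 ± 0.11 (0.194). So the high level of Col7a1 in GFP-PGC-1α+DFO was not called as an interaction over all genes. The poly-A scale added 0.29 to every interaction value (0.44 without Trpn), and Col1a2 then had -0.10 (0.05). In a fit of only genes above the median level Col5a2, Col5a3, Col6a1 and Col7a1 passed (limma adjusted p from 0.0207 to 0.0467). Over all 5 comparisons that fit added 11 calls among the 13 collagen genes above the median level that had a single-factor call. The share of all genes passed in that fit is not set beside these calls. The 4 single-factor comparisons share arrays in pairs and are not independent of each other.

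Chains of 1 collagen type need not move together. For chains of types I, IV, V and VI the ratio of one to another was taken within each array and set to 0 at the mean of the GFP arrays, which shows unequal change and no amounts of protein. The pairs were chosen after the values were seen, so they carry no test. The log2 ratio of Col1a1 to Col1a2 was 1.18 to 1.31 on the 4 DFO arrays and -0.14 to 0.02 on the others. That of Col6a3 to Col6a2 was 2.03 and 2.39 in GFP+DFO and 3.36 and 2.96 in GFP-PGC-1α+DFO, against -0.01 to 0.28 without DFO. Col6a3 to Col6a1 gave 0.99 and 1.29, then 1.89 and 1.83, against -0.27 to 0.09. Col5a3 to Col5a1 gave 1.03 and 0.98 in GFP+DFO and 2.37 and 2.39 in GFP-PGC-1α+DFO, against -0.23 to 0.58. That ratio rests on the brighter Col5a3 probe set. With the mean of probe sets DFO changed Col5a3 by 1.34 and Col5a1 by 1.35 in GFP myotubes. In GFP-PGC-1α myotubes the changes were 1.56 and 1.24. In these 4 ratios the DFO arrays thus lay outside the range without DFO. For Col4a1 to Col4a2 all 8 arrays lay between -0.05 and 0.18, and for Col5a1 to Col5a2 the DFO arrays (-0.62 to -0.41) overlapped the GFP-PGC-1α arrays (-0.50 and -0.48).

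**Figure D4:**
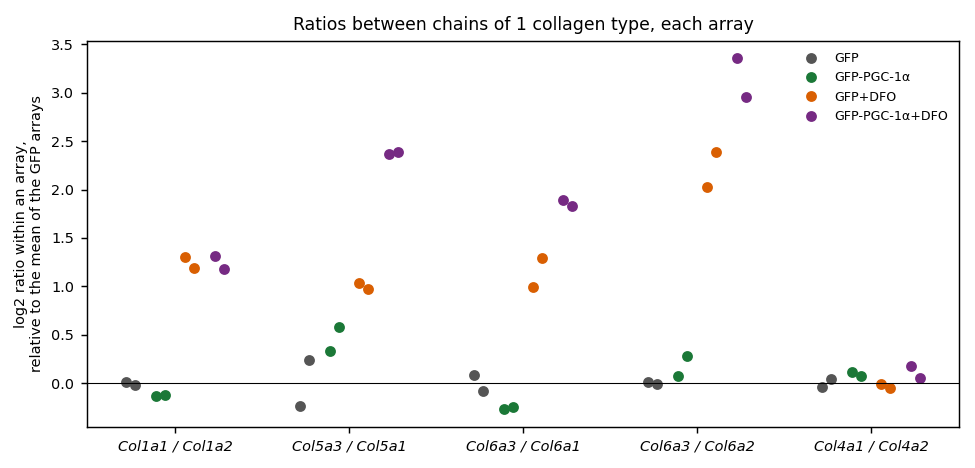
Log2 ratio of the intensities of chains of 1 collagen type within each array, relative to the mean of the GFP arrays, with a point per array coloured by group. Each chain is read from its brightest probe set alone. The DFO arrays (orange and purple) stand above the others for Col1a1 to Col1a2, Col5a3 to Col5a1, Col6a3 to Col6a1 and Col6a3 to Col6a2. All arrays lie near 0 for Col4a1 to Col4a2.

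Genes that make, process, bind and degrade collagen were taken from lists of the pathway. Their counts are read against the shares of all genes called with DFO, which were 24.2% in GFP myotubes and 25.6% in GFP-PGC-1α myotubes (39.8% and 41.1% of genes above the median level), and with the construct, 9.73% without DFO and 18.9% with it. Of 15 measured genes of chain hydroxylation, folding and secretion, 9 rose and 1 fell with DFO in GFP myotubes, and 8 rose and 2 fell in GFP-PGC-1α myotubes. P4ha2, a prolyl 4-hydroxylase subunit, rose by 3.41 ± 0.10 and 3.24 ± 0.10 (log2; limma adjusted p = 0.000139 and 8.23e-05), and Plod2, a lysyl hydroxylase, by 2.62 ± 0.11 and 3.00 ± 0.11 (limma adjusted p = 0.00026 and 0.00011). Named after its values were seen, Serpinh1, the collagen chaperone HSP47, fell by 0.46 ± 0.10 and 0.63 ± 0.10 (limma adjusted p = 0.0306 and 0.0107), but neither passed on the poly-A scale (-0.39 and -0.27, limma adjusted p = 0.142 and 0.223). The medians of the list were 0.74 and 0.54, beside -0.02 and 0.01 over all genes. With the construct 3 fell in each comparison and no other passed, led by the dim P3h3 (-0.62 ± 0.08 and -0.97 ± 0.08). None of these 6 falls passed on the poly-A scale. P3h3 then had -0.41 and -0.47 (limma adjusted p = 0.222 and 0.0831).

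Of 8 measured genes of procollagen processing and cross-linking 2 rose and 1 fell with DFO in GFP myotubes, and 2 rose and 2 fell in GFP-PGC-1α myotubes. With 7 of the 8 above the median level, 3 of 8 called in GFP myotubes was close to the share over such genes. Lox, lysyl oxidase, rose by 2.96 ± 0.09 and 3.18 ± 0.09, and Pcolce2, an enhancer of procollagen C-proteinase, by 3.29 ± 0.23 and 3.30 ± 0.23. Loxl1 fell by 1.49 ± 0.13 and 2.41 ± 0.13. Pcolce, the related enhancer, rose with the construct, by 1.63 ± 0.12 without DFO (limma adjusted p = 0.00316) and by 0.84 ± 0.12 with it (limma adjusted p = 0.00897). In the breakdown list 3 of 10 rose and 1 fell with DFO in both kinds of myotube. These were the collagenase Mmp13 (2.30 ± 0.43 and 2.42 ± 0.43), the inhibitors Timp3 (2.06 ± 0.13 and 2.29 ± 0.13) and Timp1 (1.29 ± 0.08 and 1.08 ± 0.08) and, falling, Timp2 (-0.62 ± 0.09 and -1.06 ± 0.09). Mmp13 was dim, with a mean intensity of 21.05 in GFP and 16.15 in GFP-PGC-1α. Timp2 did not pass in GFP myotubes on the poly-A scale (limma adjusted p = 0.0684), nor in GFP-PGC-1α myotubes on it without Trpn (0.0576).

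Of 7 measured collagen receptors 1 rose with DFO in GFP myotubes, the endocytic receptor Mrc2 (0.85 ± 0.14, limma adjusted p = 0.0102), and 1 fell in GFP-PGC-1α myotubes, the receptor kinase Ddr2 (-1.09 ± 0.22, limma adjusted p = 0.0187). A count of 1 in 7 is no more than the share over all genes, and neither call held on the poly-A scale without Trpn (limma adjusted p = 0.0588 and 0.08). Itgb1, the β1 integrin, fell with the construct, by 0.58 ± 0.07 without DFO and 0.80 ± 0.07 with it (limma adjusted p = 0.013 and 0.00301). Neither passed on the poly-A scale, where the changes were -0.37 and -0.29 (limma adjusted p = 0.244 and 0.189). Among 12 partners of type IV in the basement membrane 2 rose and 3 fell with DFO in GFP myotubes, and 2 rose and 2 fell in GFP-PGC-1α myotubes. Of the 12, 10 lay above the median level, so these counts were near the shares over such genes. Nid1 and Nid2, the nidogens that join laminin to type IV collagen, went opposite ways, Nid1 rising by 2.00 ± 0.13 and 2.06 ± 0.13 and Nid2 falling by 1.76 ± 0.20 and 2.24 ± 0.20. Lama2, the laminin chain of mature muscle, fell by 1.10 ± 0.10 and 0.83 ± 0.10, the second of which did not pass on the poly-A scale (-0.47, limma adjusted p = 0.106).

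Of 10 measured genes of transforming growth factor β signalling, a known inducer of fibrillar collagens, 4 rose and 2 fell with DFO in GFP myotubes, and 2 rose and 3 fell in GFP-PGC-1α myotubes. All 10 lay above the median level, where 39.8% of all genes passed in GFP myotubes and 41.1% in GFP-PGC-1α myotubes. The ligands Tgfb2 and Tgfb3 fell in both, Tgfb2 with changes of -2.27 ± 0.28 and -2.48 ± 0.28 and Tgfb3 with changes of -1.36 ± 0.09 and -3.52 ± 0.09, and the inhibitor Smad7 rose by 2.46 ± 0.23 and 1.55 ± 0.23. With the construct under DFO, 12% of all genes and 1906 of the 9096 genes above the median level fell. Of the list 5 fell and no other passed. Of these Tgfbr1, Tgfbr2 and Smad4 did not pass on the poly-A scale, nor did Ccn2 without Trpn (limma adjusted p = 0.0573). On the deposited scale Tgfb3 fell in this comparison by 3.07 ± 0.09 and Ccn2, a matrix-inducing target of the pathway, by 1.25 ± 0.09 (limma adjusted p = 0.000302 and 0.00159). Both passed as interactions (-2.16 ± 0.13 and -1.24 ± 0.12, limma adjusted p = 0.0235 and 0.0443), though on the poly-A scale neither did (limma adjusted p = 0.0847 and 0.198). On the poly-A scale the falls under DFO of Serpinh1, Bmp1, Mmp2 and Tgfbr1 with the construct turned to between 0.0053 and 0.12, and that of Mrc2 to 0.02 without Trpn. The only other called gene of the lists to change direction was Colgalt1, with DFO in GFP-PGC-1α myotubes and without Trpn.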

How the data were processed

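Biotinylated cRNA from total RNA of 8 cultures was hybridised, 1 array each, per the labels. The deposited values are linear probe-set intensities. The probe summary, background correction and scaling that the authors applied before deposit were not given in the sources used. Of 45101 probe sets 34945 carried 1 symbol, 932 several and 9160 none in the platform annotation, and 64 were controls. Each of 18193 genes was read from its brightest probe set. Deposited intensities were taken to log2 with no pseudocount and no filter. Group means were fitted over the 8 arrays together in limma 3.58.1 (R 4.3.3), which left 4 residual degrees of freedom and 1.30 from the eBayes prior, with neither trend nor robust moderation. P-values are two-sided, adjusted by Benjamini and Hochberg's method across all genes of a comparison, and called at 0.05. The same fit over all probe sets served second probe sets. Errors are SE and intervals are 95%, both from that fit. They measure the spread between these arrays, whose number limits precision.

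All 42 genes were named. Array values were given for genes above the median level that passed a single-factor comparison, up to 5 per class and comparison, with at most 3 called genes per pathway list and comparison. Those of type IV, Col9a1, Col16a1 and dim genes were added after their values were seen. Members, lists and rules were chosen with earlier results of these data known. Alternatives were other scalings, probe-set rules, a filter, a floor, other moderation, fewer groups, a replicate block and each array left out. The procedure was tested on simulated data. Promoters were searched in Python 3.11.15.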

Additional observations from a re-analysis of the deposited data

Results flagged for a closer look

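Probe sets that did not stand for their gene carried changes that the brightest probe set of that gene did not. The second Col12a1 probe set rose by 1.42 (log2) with DFO in GFP-PGC-1α myotubes, where the one used had 0.17. A dim second probe set of Col23a1 had -1.88 with DFO in GFP myotubes, where the one used rose by 1.18. The second Col3a1 probe set had -1.21 with DFO in GFP-PGC-1α myotubes, beside -0.11. That of Col4a5 had -2.68 with DFO in GFP-PGC-1α myotubes, beside -0.03, and -2.17 with the construct under DFO, beside 0.21. Each passed limma over all probe sets (adjusted p from 0.00392 to 0.0483). In 4 of the 5 the GFP-PGC-1α+DFO arrays are compared, on which the beta-actin 5' to 3' ratio was lowest. Its part in these values was not tested, and which stretch of a transcript a probe set covers was not analysed here.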

How the results depend on the processing

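Shares of all genes called are not set beside the counts in this paragraph. Counts of collagen genes called moved by over 1.5 times as follows. For the construct without DFO, 2 on the deposited scale, limma passed 1 on the poly-A scale, 0 on it without Trpn (an alternative chosen after seeing the data), 0 with the mean of probe sets, 0 with a floor at the 25th percentile, 0 in a fit of only the groups compared, 5 with trended and robust moderation, and 0 to 1 with an array left out. For DFO in GFP myotubes, 14 became 7 with the mean of probe sets and 7 to 12 with an array left out. For the construct under DFO, 9 became 5 on the poly-A scale, 5 with the mean of probe sets, 1 in a fit of only the groups compared, and 0 to 9 with an array left out. For DFO in GFP-PGC-1α myotubes, 14 became 8 in a fit of only the groups compared and 8 to 12 with an array left out. For the interaction, 0 became 4 among genes above the median level and 6 with trended and robust moderation, and stayed 0 with an array left out. Where fewer arrays or only brighter genes entered, the fit itself had fewer samples or tests. For the others the cause was not tested. With the construct under DFO the poly-A scale turned Col3a1 to 0.10, Col5a1 to 0.026, Col5a2 to 0.10 and Col6a1 to 0.069, and without Trpn to 0.21, 0.14, 0.22 and 0.18, with Col1a1 at 0.0547 and Col1a2 at 0.0543.

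The replicate number as a block gave 1, 13, 5, 12 and 0 calls in the order above. Replicate deviations of different groups correlated between -0.11 and 0.22. Such values cannot settle whether samples of the same replicate number were handled together.

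Low signal, a mean log2 intensity at or below 6.97, limits what can be seen of 24 of the 42 genes. 2 arrays per group leave intervals wide, and total RNA per cell cannot be seen on scaled intensities.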
